A study of Mus musculus with 12 samples.

Results

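Mural cells wrap the vessels of the brain from outside, and 10 genes that mark them were followed through the cortex of 12 E4FAD mice. The genes were given by name and found in the count table through their Ensembl identifiers, which gave 10 of the 50563 genes listed. Of the 10, 3 mark the contractile smooth muscle cells of arteries and arterioles (Acta2, Tagln and Myh11). The other 7 are called pericyte genes here (Pdgfrb, Rgs5, Kcnj8, Abcc9, Notch3, Vtn and Cspg4). Some of these, such as Notch3, Abcc9 and Cspg4, are not confined to capillary pericytes. The list was drawn up with the difference between the groups in these libraries already known. That difference is therefore described below with no p-value for any member. Nothing is read from the 1 count of calls or from the counts of members without overlap. What age and the spread between mice show is tested. All 12 mice were of the E4FAD strain, with the genotype APOE4+/+, 5FAD-/+, that is, both copies of human APOE4 and 1 set of familial Alzheimer's disease transgenes, whose expression is driven in neurons. The DPAn-6 group (n = 5) received the omega-6 fatty acid docosapentaenoic acid by daily gavage, at 700 mg/kg for 3 weeks. The CTRL group (n = 7) was gavaged with vehicle. According to the study, mice of both groups received the antioxidants of the vehicle. CTRL held 2 mice of 12 months and 5 of 14 months, and DPAn-6 held 2 of 12 months and 3 of 14 months. No mice without the transgenes and no untreated mice were analysed here, and both groups held both sexes, with the sex of single mice not given in the labels. Each mouse gave 1 library of poly(A)-selected RNA from whole cortex, so a lower value of a marker can reflect fewer cells of that type or less RNA in each cell, and the libraries cannot tell these apart.

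Smooth muscle cells form rings around arteries and arterioles, set vessel width through an actin and myosin apparatus, and depend on serum response factor and its partner myocardin for the transcription of that apparatus. Pericytes sit within the basement membrane of capillaries and are recruited by endothelial PDGF-B acting on the receptor that Pdgfrb encodes. They help to form the blood-brain barrier and carry an ATP-sensitive potassium channel that couples their membrane potential to metabolism. Loss or dysfunction of both cell types is widely discussed in Alzheimer's disease and in carriers of APOE4.

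Sequence before a RefSeq transcription start is shown for Acta2 (smooth muscle member), Rgs5 (pericyte member) and Lmod1 (the listed contractile gene that fell). Myl9 is added, picked after the search as the other contractile gene with 2 matches. The sequences are shown because serum response factor binds a short A/T-rich element, the CArG box, at many smooth muscle genes. The element was searched as CC, then 6 bases of which at least 5 are A or T, then GG, a form that reads alike on both strands, in the 250 bases before the transcription start in RefSeq promoters of GRCm38.p6, and it was chosen after the sequences were seen. The promoter table held 7 of the 10 members, and Tagln, Myh11 and Pdgfrb had no entry. Capitals mark a match. Acta2 (chr19:34255374-34255623, minus strand) held 2 matches, the first starting 84 and the second 34 bases before the RefSeq start. The GENCODE span of Acta2 begins farther upstream, at 34255590, so most of this window and both matches lie inside that span. Myl9, the regulatory light chain of smooth muscle myosin (chr2:156775214-156775463, plus strand), also held 2 matches, at 161 and 99 bases before its start. Lmod1, the smooth muscle leiomodin (chr1:135324563-135324812, plus strand), and Rgs5 of the pericyte genes (chr1:169655251-169655500, plus strand) held none in this window.
Acta2: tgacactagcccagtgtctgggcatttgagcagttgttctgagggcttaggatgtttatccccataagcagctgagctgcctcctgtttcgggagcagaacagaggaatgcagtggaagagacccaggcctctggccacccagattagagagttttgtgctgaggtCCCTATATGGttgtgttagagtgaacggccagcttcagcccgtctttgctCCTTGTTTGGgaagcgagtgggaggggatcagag
Myl9: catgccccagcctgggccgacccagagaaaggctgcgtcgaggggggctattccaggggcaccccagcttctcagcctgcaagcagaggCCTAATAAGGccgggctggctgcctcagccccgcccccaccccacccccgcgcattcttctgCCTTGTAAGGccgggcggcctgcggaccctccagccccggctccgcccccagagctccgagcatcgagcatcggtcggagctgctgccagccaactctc
Lmod1: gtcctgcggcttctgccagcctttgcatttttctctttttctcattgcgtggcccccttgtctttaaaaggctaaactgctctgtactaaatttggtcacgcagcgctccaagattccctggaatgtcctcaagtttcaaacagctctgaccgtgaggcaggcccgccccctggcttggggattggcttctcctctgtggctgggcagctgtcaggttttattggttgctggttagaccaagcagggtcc
Rgs5: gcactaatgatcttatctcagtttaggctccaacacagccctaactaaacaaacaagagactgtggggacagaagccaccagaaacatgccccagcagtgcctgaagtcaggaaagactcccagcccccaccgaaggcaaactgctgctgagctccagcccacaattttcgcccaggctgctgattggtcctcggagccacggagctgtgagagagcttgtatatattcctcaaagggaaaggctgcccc

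Counted by gene, a match in any promoter was present in 0 of 6 pericyte members and in 2 of 16 other contractile genes. In the list of serum response factor and its partners it was present in 2 of 7 genes. Of all 32851 promoters in the table, 8.59% held a match, a share of promoters and not of genes, as some genes have several. Promoters with 2 or more matches made up 0.67% of all. Under the stricter form in which all 6 middle bases are A or T, Acta2 held 0 matches and Myl9 held 1. These are matches of letters, and binding was not measured.

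The count of reads on genes in a library lay between 15339098 and 19500154 for CTRL mice and between 15208803 and 26520251 for DPAn-6 mice. Levels are given as CPM, the count scaled to a common library total, and log2 fold changes are DPAn-6 minus CTRL from edgeR's quasi-likelihood fit over the 15688 genes that passed its filter on low counts, a filter that all 10 members passed. Cortical neuron markers were present in every mouse, with a summed level of 8 genes from 4088 to 5787 CPM in CTRL and from 4610 to 5140 in DPAn-6. Choroid plexus transcripts were also found. The summed level of 8 choroid genes was 13.7 to 1687 CPM in CTRL, highest in replicate 2, and 8.35 to 24.7 CPM in DPAn-6. CTRL replicate 3 stood apart from the other libraries, with a median correlation of 0.960 with the others over genes where the other 11 had 0.982 to 0.988, and the members and lists whose values or calls change without it are given in both ways.

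Per kilobase of exon, the pericyte genes Vtn and Rgs5 were the most abundant members. In CTRL, Vtn, which encodes the adhesive glycoprotein vitronectin, had a mean level of 39.1 CPM per kilobase (SD 7.32, n = 7), and Rgs5, a regulator that shortens G protein signalling, had 29.1 (SD 6.92). Their ranges over mice overlapped. Below them came Acta2, smooth muscle alpha actin, at 10.8 (SD 1.25), whose range met neither that of Rgs5 above nor that of Pdgfrb below. Pdgfrb followed at 7.56 (SD 0.988), Tagln at 5.42 (SD 1.25), Notch3 at 5.24 (SD 0.773), Myh11 at 4.20 (SD 0.552), Cspg4 at 3.82 (SD 0.672) and Abcc9 at 2.42 (SD 0.229), and from Pdgfrb down to Abcc9 each overlapped the next. Kcnj8 was lowest at 1.73 (SD 0.233), apart from Abcc9.

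The order in DPAn-6 differed in the middle. Vtn at 37.1 (SD 3.81, n = 5), Rgs5 at 25.8 (SD 1.99), Acta2 at 7.78 (SD 1.51) and Pdgfrb at 6.76 (SD 0.372) kept the first 4 places, and the range of Acta2 now overlapped that of Pdgfrb. Tagln, at 3.62 (SD 0.776), lay below Notch3 at 4.29 (SD 0.421) and Cspg4 at 3.63 (SD 0.280), and Myh11, at 2.53 (SD 0.363), lay below both as well. Abcc9 at 1.96 (SD 0.356) and Kcnj8 at 1.67 (SD 0.227) closed the order. Ranges from Notch3 down to Kcnj8 overlapped from each gene to the next, so only the places of the top 4 were separate from the rest.

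**Figure D1:**
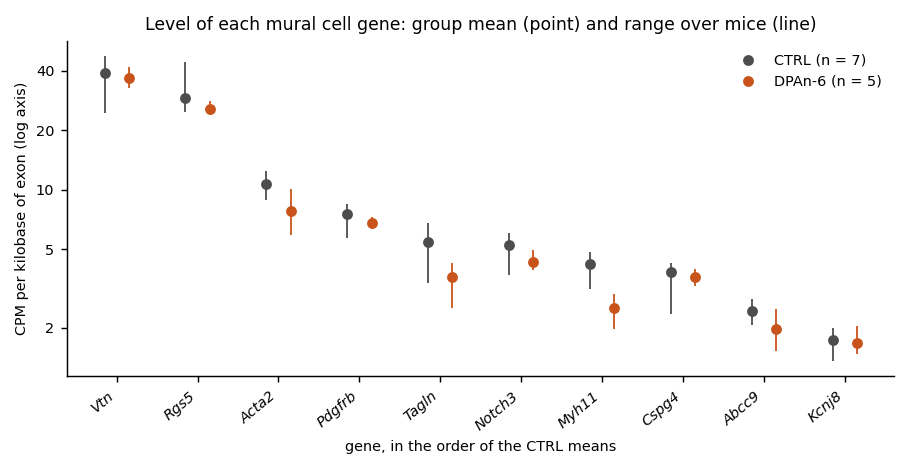
Level of each gene in CPM per kilobase of exon (log axis), with the mean of each group as a point and the range over mice as a line, for CTRL (grey, n = 7) and DPAn-6 (orange, n = 5). Vtn and Rgs5 lie above the rest in both groups, and the gap between the groups is widest for Myh11 (4.20 and 2.53) and Tagln (5.42 and 3.62).

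All 3 smooth muscle genes were lower in the DPAn-6 mice, to 59.2 to 71.3% of the CTRL level. Myh11 encodes the heavy chain of smooth muscle myosin (ENSMUSG00000018830, GRCm38 chromosome 16, 14194535 to 14291372, minus strand). Its level in CTRL was 23.96 CPM in the lowest mouse, 32.8 in the median mouse and 36.8 in the highest, and the 5 DPAn-6 mice had 19.6, 22.5, 20.3, 14.99 and 18.6 CPM. The highest DPAn-6 mouse was below the lowest CTRL mouse. The difference was −0.76 on the log2 scale (standard error 0.12), from 228 to 644 counts per mouse.

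Acta2 (ENSMUSG00000035783, chromosome 19, 34241090 to 34255590, minus strand), which encodes the actin of the contractile filaments, had 19.5, 22.9 and 27.3 CPM in the lowest, median and highest CTRL mouse. The DPAn-6 mice had 22.2, 16.0, 16.9, 13.0 and 17.4 CPM. Only DPAn-6 replicate 1 reached the CTRL range, and the other 4 were lower than the lowest of them. The log2 fold change of Acta2 was −0.49 (standard error 0.12). Tagln (ENSMUSG00000032085, chromosome 9, 45929619 to 45936058, minus strand) encodes transgelin, an actin-binding protein of smooth muscle also called SM22. It had 6.71, 11.2 and 13.5 CPM in the lowest, median and highest CTRL mouse and 8.21, 6.17, 8.50, 5.00 and 8.14 CPM in the DPAn-6 mice. The groups overlapped through CTRL replicate 3, the only CTRL mouse below 9 CPM, and 2 of the 5 DPAn-6 mice lay below it. Tagln differed by −0.60 on the log2 scale (standard error 0.17), and the difference was −0.68 without CTRL replicate 3. Exons of Tagln overlap those of Pcsk7 on the opposite strand, which had up to 626 counts in a mouse, and without a stated strand setting of the counting the reads of this pair cannot be told apart.

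**Figure D2:**
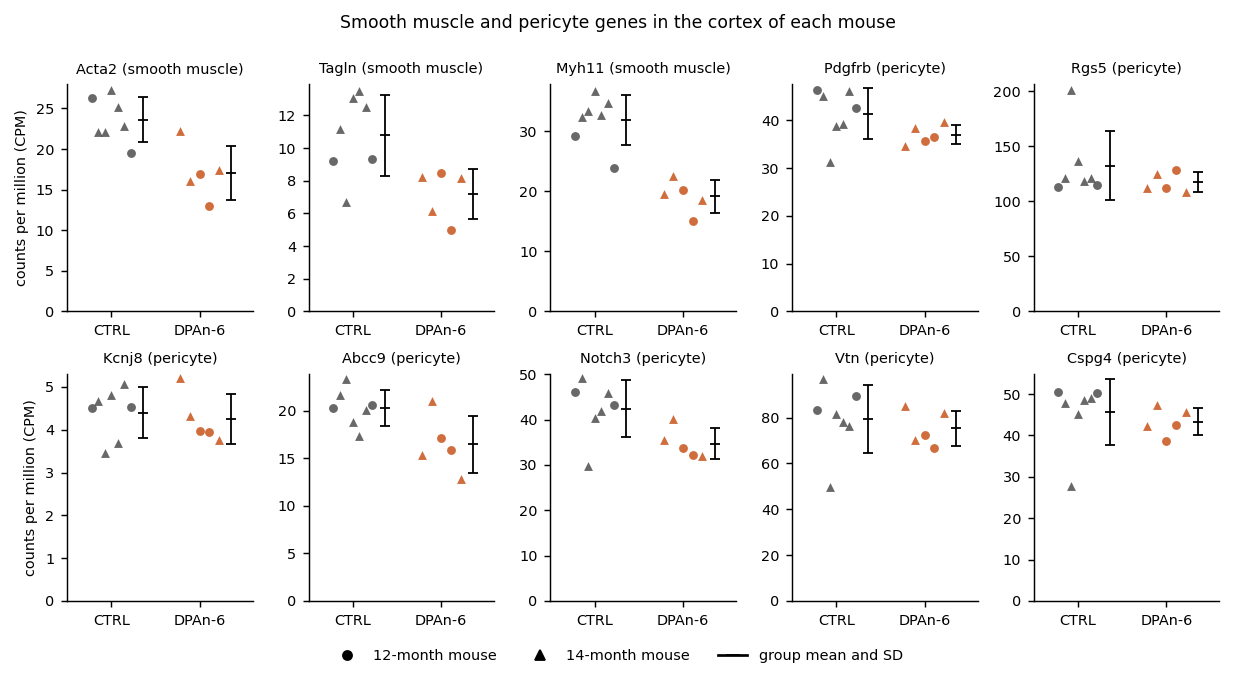
Level in CPM of each of the 10 genes in each mouse, for CTRL (grey, 7 mice) and DPAn-6 (orange, 5 mice), with circles for 12-month and triangles for 14-month mice and the group mean with its SD beside the points. Myh11 is the gene in which the groups do not overlap, and CTRL replicate 3 is the high point of Rgs5 (201.6 CPM) and the low point of Notch3, Vtn and Cspg4.

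The 7 pericyte genes were also lower on average in DPAn-6, by less, and the groups overlapped in all 7. The largest differences were in Abcc9 and Notch3. Abcc9 (ENSMUSG00000030249, chromosome 6, 142587862 to 142702315, minus strand) encodes SUR2, the regulatory subunit of the ATP-sensitive potassium channel of mural cells. It had 17.3, 20.2 and 23.3 CPM in the lowest, median and highest CTRL mouse and 15.4, 20.96, 17.2, 15.9 and 12.8 CPM in the DPAn-6 mice. DPAn-6 replicate 2 lay within the CTRL range and the other 4 below it, and Abcc9 differed by −0.33 on the log2 scale (standard error 0.12). The partner of this channel, the pore subunit Kir6.1 encoded by Kcnj8 (ENSMUSG00000030247, chromosome 6, 142564837 to 142571614, minus strand), lies next to Abcc9 in the genome. It had 3.46, 4.54 and 5.07 CPM in the lowest, median and highest CTRL mouse and 5.22, 4.32, 3.97, 3.94 and 3.77 CPM in DPAn-6. The highest of all 12 mice was DPAn-6 replicate 1. The log2 fold change of Kcnj8 was −0.08 (standard error 0.13), on only 53 to 100 counts per mouse.

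Notch3 (ENSMUSG00000038146, chromosome 17, 32120820 to 32166852, minus strand) encodes the Notch receptor of arterial smooth muscle and pericytes. It had 29.9, 43.3 and 49.1 CPM in the lowest, median and highest CTRL mouse and 35.6, 40.2, 33.7, 32.2 and 31.9 CPM in DPAn-6. The lowest value of the 12 mice was that of CTRL replicate 3, and the other 6 CTRL mice all lay above the highest DPAn-6 mouse. Notch3 differed by −0.31 on the log2 scale (standard error 0.10), and by −0.37 without CTRL replicate 3. Pdgfrb (ENSMUSG00000024620, chromosome 18, 61045150 to 61085061, plus strand), the receptor that recruits pericytes, was also lowest in CTRL replicate 3, and 4 of the 7 CTRL mice lay above the highest DPAn-6 mouse. It had 31.4, 42.7 and 46.4 CPM in the lowest, median and highest CTRL mouse and 34.7, 38.3, 35.6, 36.6 and 39.8 CPM in DPAn-6, with a log2 fold change of −0.18 (standard error 0.09).

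Rgs5 (ENSMUSG00000026678, chromosome 1, 169655501 to 169695813, plus strand) differed by −0.20 on the log2 scale (standard error 0.14), with 113.3, 120.9 and 201.6 CPM in the lowest, median and highest CTRL mouse and 111.8, 125.2, 112.5, 128.7 and 108.4 CPM in DPAn-6. The highest value was again that of CTRL replicate 3, and without this mouse the log2 fold change was −0.06. Vtn (ENSMUSG00000017344, chromosome 11, 78499091 to 78502324, plus strand) had 49.6, 81.6 and 96.7 CPM in the lowest, median and highest CTRL mouse and 85.0, 70.3, 72.4, 66.9 and 81.8 in DPAn-6. Its log2 fold change of −0.10 (standard error 0.12) became −0.18 without CTRL replicate 3. Cspg4 (ENSMUSG00000032911, chromosome 9, 56865033 to 56899870, plus strand) encodes the proteoglycan NG2, which oligodendrocyte precursors carry too. It had 27.9, 48.5 and 50.6 CPM in the lowest, median and highest CTRL mouse and 42.3, 47.4, 38.8, 42.5 and 45.7 in DPAn-6, with a log2 fold change of −0.10 (standard error 0.12) and −0.18 without CTRL replicate 3.

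Counted over the list, all 10 members had a log2 fold change below 0, against 51.3% of all genes tested. The groups did not overlap in 1 member, Myh11, where 1.49% of all genes tested were lower in DPAn-6 with no overlap. In the same fit 1 member, again Myh11, had an adjusted p under 0.05. Of all genes tested, 1.55% were called in either direction and 1.14% were called lower. The list was made with this contrast known, and nothing is read from these counts.

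Smooth muscle and pericyte genes were also compared as means of log2 CPM within each mouse. The mean of the 3 smooth muscle genes ranged from 4.03 to 4.56 in CTRL (mean 4.31, SD 0.20) and had values of 3.94, 3.71, 3.84, 3.31 and 3.79 in the DPAn-6 mice (mean 3.72, SD 0.24). The groups did not overlap, and their means differed by −0.60. The mean of the 7 pericyte genes ranged from 4.90 to 5.27 in CTRL (mean 5.15, SD 0.12) and from 4.94 to 5.11 in DPAn-6 (mean 5.00, SD 0.08). No DPAn-6 mouse lay below the CTRL range, but its lower end was CTRL replicate 3 alone. The next lowest CTRL mouse, replicate 5, had 5.07, and the DPAn-6 mice had 5.03, 5.11, 4.94, 4.95 and 4.94. The mean of 12 endothelial genes was 4.65 (SD 0.10) in CTRL and 4.64 (SD 0.05) in DPAn-6, a difference of −0.02. Relative to endothelium, smooth muscle genes were at −0.34 in CTRL and −0.92 in DPAn-6, with no overlap between the groups. Pericyte genes were at 0.49 (SD 0.06) and 0.36 (SD 0.08), a difference of −0.13. There the groups overlapped, and 3 of the 5 DPAn-6 mice lay below the CTRL range. Relative to pericyte genes, smooth muscle genes were at −0.83 (SD 0.21) in CTRL and −1.28 (SD 0.24) in DPAn-6, and 2 of the 5 DPAn-6 mice were outside the CTRL range. These differences between lists have no p-value, because the members were chosen with the contrast known.

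**Figure D3:**
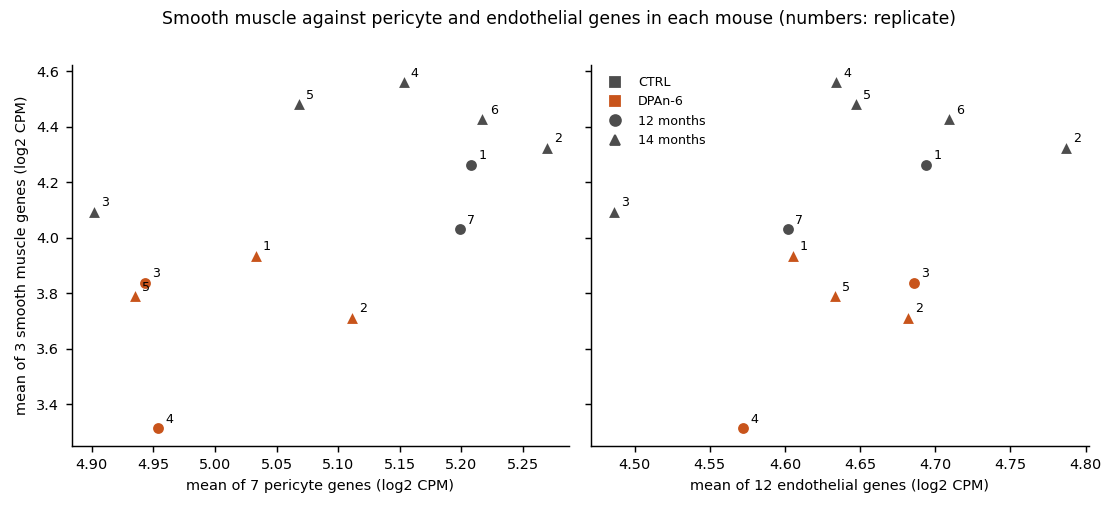
Mean log2 CPM of the 3 smooth muscle genes against the mean of the 7 pericyte genes (left) and of 12 endothelial genes (right), 1 point per mouse, for CTRL (grey) and DPAn-6 (orange), circles for 12 and triangles for 14 months, with replicate numbers beside the points. On the vertical axis the DPAn-6 mice all lie lower than the lowest CTRL mouse, while along both horizontal axes the groups overlap.

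Other genes of the contractile apparatus were read from the same fit, with p-values adjusted over all genes tested. This list and those that follow were drawn up with earlier results of the same contrast known, so their counts are descriptions and no independent evidence of a direction. Of 17 such genes 16 were tested (Actg2 was not), 15 had a log2 fold change below 0, and 1 fell with an adjusted p under 0.05, as did 1.14% of all genes tested. The median of the list was −0.41, where the median of all genes tested was −0.005. The gene that fell was Lmod1, which encodes leiomodin, a nucleator of actin filaments in smooth muscle. It had 2.58, 3.51 and 4.37 CPM in the lowest, median and highest CTRL mouse and 1.64 to 2.49 CPM in DPAn-6, with a log2 fold change of −0.77 (standard error 0.16, adjusted p = 0.0285 by edgeR's quasi-likelihood test). The groups did not overlap. Leaving out CTRL replicate 1, 2, 4 or 6, or DPAn-6 replicate 1, 2, 3 or 4, took the adjusted p to between 0.0525 and 0.0953.

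Over all 12 mice the other contractile genes did not pass the adjustment, and 13 of the 16 had a log2 fold change below 0 with an unadjusted p under 0.05, as did 9.02% of all genes tested. The groups did not overlap in 5 of the 16, which were Lmod1, Itga8, Cnn1, Des and Tpm2, where 1.49% of all genes tested were lower without overlap. Itga8, the integrin alpha-8 chain, had a log2 fold change of −0.42 (standard error 0.10, adjusted p = 0.0568 by edgeR). Cnn1, calponin, was among the lowest genes of the list in level, with 0.782 to 1.90 CPM in CTRL and 0.329 to 0.673 in DPAn-6, and its log2 fold change was −1.07 (standard error 0.29, adjusted p = 0.0877 by edgeR). Myl9 was at −0.37 (standard error 0.10, adjusted p = 0.0984). Tpm1, a tropomyosin that many cell types use, was the 1 gene above 0, at 0.04 (standard error 0.09). Without CTRL replicate 3, 6 of the 16 fell with an adjusted p under 0.05, against 3.98% of the genes then tested. They were Lmod1 (adjusted p = 0.0140 by edgeR), Itga8 (0.0234), Cnn1 (0.0334), Des (0.0413), Myl9 and Mylk, and the median of the list was −0.32.

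Of 14 other pericyte genes, all were tested, 13 had a log2 fold change below 0 and 2 fell with an adjusted p under 0.05, where 1.14% of all genes tested did, with a median of −0.16. Foxc1, a transcription factor of brain mural cells and of the meninges, fell from a median of 10.4 CPM (8.62 to 12.0) in CTRL to 7.17 (5.73 to 7.88) in DPAn-6, without overlap. Its log2 fold change was −0.57 (standard error 0.12, adjusted p = 0.0276 by edgeR's quasi-likelihood test), and the adjusted p was 0.0545 to 0.102 without CTRL replicate 1 or 4 or any one of the 5 DPAn-6 mice. The second was Slc6a20a, a proline transporter. It fell from 14.9 CPM (12.1 to 22.8) to 10.2 (7.44 to 12.3), with a log2 fold change of −0.81 (standard error 0.18, adjusted p = 0.0393 by edgeR), and its adjusted p was 0.0545 to 0.147 without CTRL replicate 1, 2, 4 or 5 or any one of the 5 DPAn-6 mice. Both genes are also expressed by meningeal or choroid cells.

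The groups also did not overlap for Anpep, aminopeptidase N (log2 fold change −0.60, standard error 0.15, adjusted p = 0.0533 by edgeR), and for Tbx18, a transcription factor of adult mural cells (−0.67, standard error 0.18, adjusted p = 0.0750). Both passed without CTRL replicate 3, with an adjusted p of 0.0220 for Anpep and 0.0430 for Tbx18 by edgeR. In that fit 4 of the 14 genes fell, Foxc1 and Slc6a20a among them, against 3.98% of the genes then tested. Values are also given for 3 genes known from capillary pericytes, picked after their values were seen. Atp13a5, a pericyte ion pump, was at −0.12 (standard error 0.10), Higd1b at −0.09 (standard error 0.28) and Ndufa4l2 at −0.19 (standard error 0.15), none with an unadjusted p under 0.05. Mcam, the adhesion molecule CD146, had the only value above 0, at 0.31 (standard error 0.12, adjusted p = 0.264 by edgeR).

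**Figure D4:**
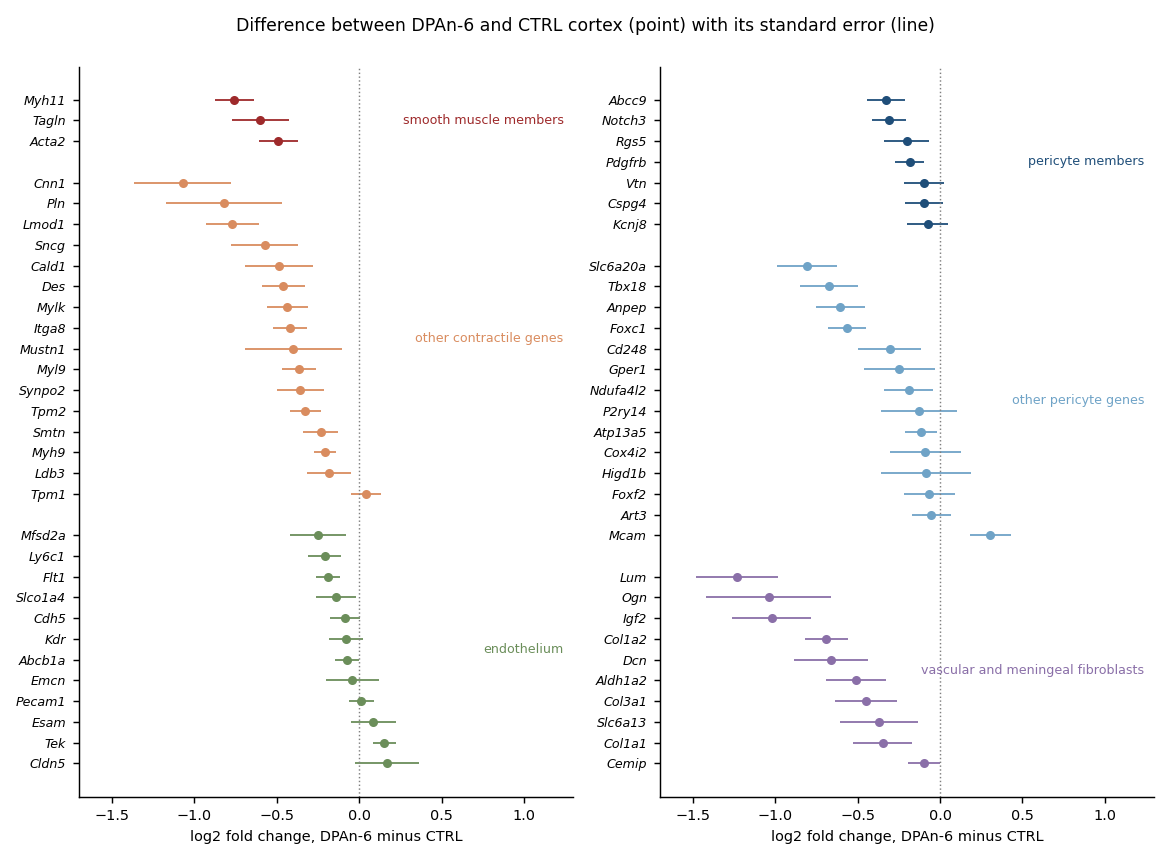
Log2 fold change, DPAn-6 minus CTRL, of each gene tested (point) with its standard error (line), for the smooth muscle members, other contractile genes and endothelium (left) and the pericyte members, other pericyte genes and vascular and meningeal fibroblasts (right). Contractile genes run from −1.07 (Cnn1) to 0.04 (Tpm1), endothelial genes lie on both sides of 0, and fibroblast genes are all below 0, down to −1.23 (Lum).

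Regulators of the 2 cell types were described from lists of their pathways. Of 9 genes of the serum response factor and myocardin system, 8 were tested and 0 had an adjusted p under 0.05 by edgeR, with 1 at an unadjusted p under 0.05 and a median of −0.08, and 0 did without CTRL replicate 3. Srf itself had 72.7 CPM on average in CTRL and 71.0 in DPAn-6 (log2 fold change −0.06, standard error 0.08). Myocd, the cofactor that directs it to smooth muscle genes, was detected at only 0.281 to 0.769 CPM in CTRL and 0.251 to 0.673 in DPAn-6, with a log2 fold change of −0.49 (standard error 0.31, adjusted p = 0.514 by edgeR). Mrtfb, a cofactor of the same family, was at −0.19 (standard error 0.08, adjusted p = 0.247) and Elk4, a ternary complex factor, at −0.15 (standard error 0.09).

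In the PDGF system 8 genes were tested, 4 lay below 0 and 0 had an adjusted p under 0.05 by edgeR, with 4 at an unadjusted p under 0.05. Pdgfb, the ligand that endothelium presents to pericytes, was at 0.12 (standard error 0.14), and Pdgfd, another ligand of the Pdgfrb receptor, was at −0.53 (standard error 0.19, adjusted p = 0.205). Pdgfra was at −0.22 (standard error 0.08) and the adaptor Grb2 at 0.20 (standard error 0.06), with adjusted p-values of 0.173 and 0.148. The adjusted p of Grb2 was 0.0477 without CTRL replicate 3, and 1 of the 8 genes was called, against 2.12% of the genes then tested that were called higher.

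In the Notch system 15 genes other than Notch3 were tested, 10 lay below 0, and 1 fell with an adjusted p under 0.05, against the same 1.14%. This was Notch2, a receptor shared by mural cells, astrocytes and others, which fell from a median of 43.8 CPM (37.8 to 50.0) in CTRL to 31.1 (27.9 to 34.8) in DPAn-6, with no overlap. Its log2 fold change was −0.53 (standard error 0.09, adjusted p = 0.00850 by edgeR's quasi-likelihood test), and it kept an adjusted p under 0.05 without any one mouse. In the 14-month mice alone the adjusted p was 0.225. Of genes that Notch receptors induce, Nrarp was at −0.37 (standard error 0.10, adjusted p = 0.0816), Hey2 at −0.40 (standard error 0.16) and Heyl, a target in smooth muscle, at −0.23 (standard error 0.17), while Hes1 was at 0.19 (standard error 0.11) and Hey1 at 0.13 (standard error 0.08). The ligand Jag1 was at −0.21 (standard error 0.12), and Notch1, a receptor not confined to endothelium, at −0.31 (standard error 0.10, adjusted p = 0.129 by edgeR). Without CTRL replicate 3, 4 of the 15 fell with an adjusted p under 0.05, against 3.98% of the genes then tested. They were Notch2, Notch1 (adjusted p = 0.0149 by edgeR), Nrarp (0.0114) and Notch4.

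Around the potassium channel and G protein signalling, 14 of 15 genes were tested, 7 lay below 0 and 1 rose with an adjusted p under 0.05, against 0.408% of all genes tested that were called higher. It was Rgs4, a relative of Rgs5 that cortical neurons express strongly, which rose from a median of 309.4 CPM (266.2 to 346.3) in CTRL to 401.9 (371.2 to 433.1) in DPAn-6 with no overlap. Its log2 fold change was 0.32 (standard error 0.07, adjusted p = 0.0387 by edgeR), and the adjusted p was 0.0525 to 0.148 without CTRL replicate 1, 2, 5 or 6 or any one of the 5 DPAn-6 mice. Pde3a, a phosphodiesterase of contractile cells, was at −0.44 (standard error 0.13, adjusted p = 0.105), and Prkg1, the kinase that relaxes smooth muscle in response to cyclic GMP, at −0.37 (standard error 0.15). Of 14 genes for basement membrane and integrins, 12 lay below 0 and 0 had an adjusted p under 0.05 by edgeR, with 5 lower at an unadjusted p under 0.05 and a median of −0.15. Lama2, a laminin chain of vessels and astrocyte endfeet, was at −0.34 (standard error 0.09, adjusted p = 0.0779), and Itga1 was at −0.39 (standard error 0.15). Lama2 (adjusted p = 0.0234 by edgeR) and Itgb5 fell in this list without CTRL replicate 3, against 3.98% of the genes then tested. Rgs4 was again called in the list before it, where 2.12% of the genes then tested were called higher.

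Markers of cells that lie beside mural cells gave unlike results. Of 12 endothelial genes, 8 lay below 0 and 0 had an adjusted p under 0.05 by edgeR, with 2 at an unadjusted p under 0.05 (Flt1 at −0.19 and Tek at 0.15), where 9.02% of all genes tested were lower and 5.51% higher at that level, and a median of −0.08. Their summed level was 381.9 to 431.4 CPM in CTRL and 362.4 to 408.5 in DPAn-6. Of 12 genes of oligodendrocyte precursors, which share Cspg4, 8 lay below 0 and 0 had an adjusted p under 0.05 by edgeR, with a median of −0.03. All 10 genes of vascular and meningeal fibroblasts lay below 0, and 3 fell with an adjusted p under 0.05, where 1.14% of all genes tested did, with a median of −0.58.

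Of the fibroblast genes, Col1a2, a chain of type I collagen, fell with a log2 fold change of −0.69 (standard error 0.13, adjusted p = 0.0170 by edgeR's quasi-likelihood test) with no overlap between the groups. Lum, the proteoglycan lumican, fell with one of −1.23 (standard error 0.25, adjusted p = 0.0248), and Igf2, a growth factor of the meninges and choroid plexus, with one of −1.02 (standard error 0.24, adjusted p = 0.0484). Without single mice the adjusted p of Col1a2 was above 0.05 without DPAn-6 replicate 2, 3 or 4 (0.0512 to 0.0557), that of Lum without CTRL replicate 4 or DPAn-6 replicate 2, 3, 4 or 5 (0.0503 to 0.0877) and that of Igf2 without CTRL replicate 1, 2, 4, 5 or 6 or DPAn-6 replicate 2, 3, 4 or 5 (0.0564 to 0.165). The summed level of the 10 genes was 148.2 to 267.2 CPM in CTRL, highest in replicate 3, and 96.5 to 176.6 in DPAn-6, lowest in replicate 4. Igf2 was the largest part of this sum, at 113.4 CPM on average in CTRL. DPAn-6 replicate 4 also had the lowest smooth muscle mean, at 3.31 log2 CPM. CTRL replicate 3, the library that stood apart from the others, had a smooth muscle mean of 4.09, next to lowest of the CTRL mice. In the choroid plexus list all 6 genes tested lay below 0 and 0 had an adjusted p under 0.05 by edgeR, with 6 at an unadjusted p under 0.05. Without CTRL replicate 3, 3.98% of the genes then tested fell with an adjusted p under 0.05 by edgeR. They included 2 of 5 choroid genes tested (Ttr and Kcnj13), the same 3 fibroblast genes, 1 endothelial gene (Mfsd2a) and 0 genes of oligodendrocyte precursors. Ttr, transthyretin, the most abundant gene of the choroid list, had 6.004, 24.1 and 1530 CPM in the lowest, median and highest CTRL mouse and 1.79 to 14.7 in DPAn-6. The part of fibroblast or choroid tissue in the values of the mural cell genes was not tested. With Ttr as a covariate, added after the data were seen, the log2 fold changes of Myh11, Acta2 and Tagln were −0.68, −0.44 and −0.48, and with the endothelial mean as covariate they were −0.75, −0.48 and −0.56.

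Of 8 microglial genes, 8 lay below 0 and 2 fell with an adjusted p under 0.05, where 1.14% of all genes tested did, Csf1r with a log2 fold change of −0.50 (standard error 0.10, adjusted p = 0.0282 by edgeR's quasi-likelihood test) and Tmem119 with one of −0.77 (standard error 0.16, adjusted p = 0.0286), with a summed level of 823.6 to 1226 CPM in CTRL and 627.0 to 835.0 in DPAn-6. The adjusted p of Csf1r was 0.0507 to 0.106 without CTRL replicate 2, 4 or 6 or DPAn-6 replicate 1, 2, 3 or 4, and that of Tmem119 was 0.0545 to 0.102 without CTRL replicate 1, 2, 4 or 6 or any single DPAn-6 mouse. Of 8 astrocyte genes 8 lay below 0, with a median of −0.18, and of 5 red cell genes 5 lay below 0, with a median of −0.21, and neither list had a gene with an adjusted p under 0.05 by edgeR (3 and 0 genes at an unadjusted p under 0.05). Cortical neuron genes had a median of 0.03, and striatal neuron genes, which mark tissue beneath the cortex, a median of 0.35, and again 0 genes of either list passed the adjustment by edgeR (0 and 1 at an unadjusted p under 0.05). In the fit without CTRL replicate 3, 5 microglial and 3 astrocyte genes fell and 1 cortical neuron gene (Snap25) rose with an adjusted p under 0.05 by edgeR, and 0 red cell or striatal genes did. At that level 3.98% of all genes then tested fell and 2.12% rose.

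Age was not used in choosing the genes, so the 12-month and 14-month mice could be compared by test, with the group as a covariate. No member had an adjusted p under 0.05, and 0% of all 15688 genes did by edgeR, with 279 genes (1.78%) at an unadjusted p under 0.05. The 3 smooth muscle genes had log2 fold changes above 0 with age, and only Myh11 had an unadjusted p under 0.05 by edgeR. Myh11 had 29.2 and 23.96 CPM in the 2 CTRL mice of 12 months and 32.4 to 36.8 in the 5 of 14 months. These did not overlap, but the share of all genes with such a gap is not given here. In the DPAn-6 mice Myh11 had 20.3 and 14.99 CPM at 12 months and 18.6 to 22.5 at 14 months. The log2 fold change with age was 0.28 (standard error 0.10), with an unadjusted p of 0.0146, an adjusted p of 1 and an exact permutation p of 0.0143 when ages were exchanged within the groups (two-sided, 210 splits, smallest possible p 0.00476). Acta2 was at 0.17 (standard error 0.12, exact permutation p = 0.210) and Tagln at 0.23 (standard error 0.18, exact permutation p = 0.319). The 7 pericyte genes lay between −0.05 (Pdgfrb) and 0.13 (Rgs5), with exact permutation p-values from 0.490 to 0.900. Choroid and fibroblast lists had medians of 1.81 and 0.41 with age, with 0 genes called in either by edgeR.

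The difference between the groups was also looked at within each age. Among the 12-month mice, with 2 in each group, 9 of the 10 members (all but Rgs5) were lower in DPAn-6 without overlap, where 24.3% of all genes tested were. Among the 14-month mice, with 5 CTRL and 3 DPAn-6, 1 member was, against 3.77% of all genes tested. That member was Myh11, at 32.4 to 36.8 CPM in CTRL and 18.6 to 22.5 in DPAn-6. These are the same mice and the contrast known when the list was made, so nothing is read from these counts. In the means of log2 CPM, Myh11 differed by −0.60 at 12 months and −0.75 at 14 months, Acta2 by −0.61 and −0.38, and Tagln by −0.50 and −0.57. Cspg4 differed by −0.31 at 12 months and by 0.08 at 14 months, and Vtn by −0.31 and 0.08. A test of the interaction of age and treatment gave adjusted p-values of 0.905 to 0.983 for the 10 members by edgeR, with unadjusted p-values of 0.194 (Rgs5) to 0.900 (Abcc9), and 0.00637% of all genes were called, with 4.26% at an unadjusted p under 0.05. In simulated counts the interaction test recovered 28.3% of genes changed by 1 on the log2 scale, so a difference between ages of that size would often be missed.

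Whether the genes varied together from mouse to mouse was tested after each group was centred on its own mean, which removes the difference between the groups. Of the 45 pairs, 0 passed 0.05 after Benjamini-Hochberg adjustment, and 12 had an unadjusted permutation p under 0.05, 9 of them between pericyte genes. The closest pair by p was Pdgfrb with Cspg4, with Pearson's r at 0.89 over 12 mice (permutation p = 0.00264, or 0.119 once adjusted) and Spearman's rho at 0.74, with r at 0.60 without the 2 mice farthest from the median of Pdgfrb. The 3 smooth muscle pairs had r of 0.43 to 0.60, all positive, led by Acta2 with Tagln (r = 0.60, permutation p = 0.0472, adjusted p = 0.179, rho = 0.64). Without CTRL replicate 3 their median r was 0.66.

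The pericyte pairs split by gene. Of 21 pairs, 13 were positive and 8 negative. Pdgfrb, Notch3, Vtn and Cspg4 were positively correlated with each other, and Rgs5 was negatively correlated with each of them, at r = −0.89 with Vtn (permutation p = 0.00987, adjusted p = 0.150) and r = −0.89 with Cspg4 (permutation p = 0.0439, adjusted p = 0.179). These values rested on CTRL replicate 3, which was high in Rgs5 and low in the others. Without it, r was −0.51 for Rgs5 with Vtn and −0.19 for Rgs5 with Cspg4, and the median r of the pericyte pairs went from 0.46 to 0.15. Between smooth muscle and pericyte genes the median r was 0.11 over 21 pairs, and −0.12 without CTRL replicate 3.

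**Figure D5:**
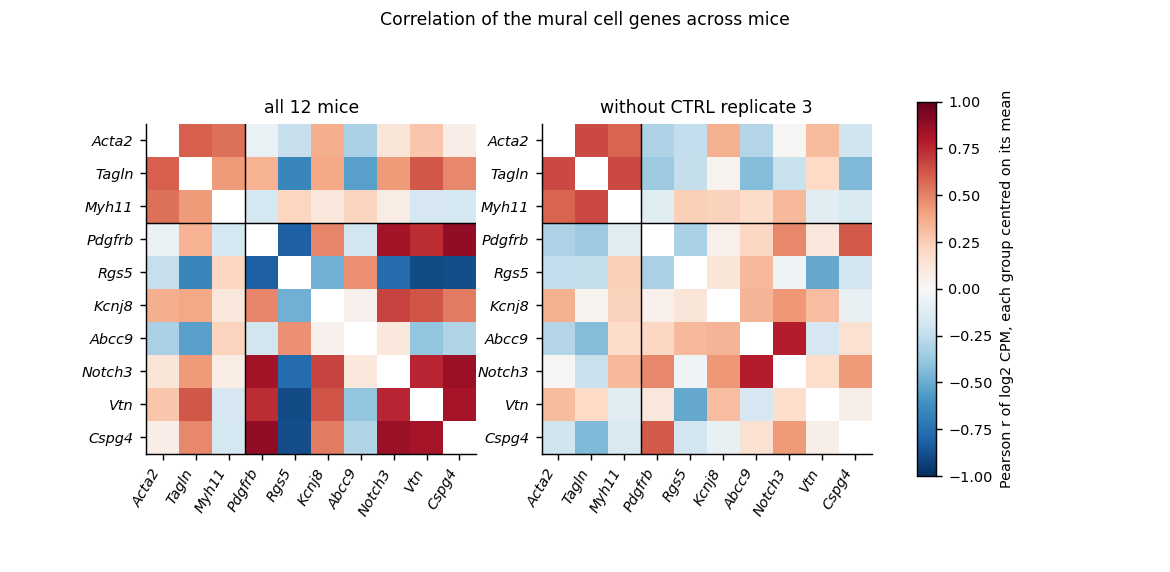
Pearson r of log2 CPM for each pair of the 10 genes, each group centred on its mean, over all 12 mice (left) and without CTRL replicate 3 (right), with red for positive and blue for negative r, and lines that set the 3 smooth muscle genes apart. The smooth muscle block stays red in both panels, while the strong red and blue pericyte block with all mice (median r 0.46) pales without CTRL replicate 3 (median r 0.15).

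Among 14439 genes with a mean of at least 1 CPM, those whose centred level followed the smooth muscle mean most closely over the 12 mice were Rasl11a (r = 0.88), Stag3 (0.88), Nadsyn1 (0.85), Secisbp2 (0.85) and Tsku (0.85). Without CTRL replicate 7 and DPAn-6 replicate 4, the 2 mice farthest from the median, these r were 0.61 to 0.76. For the pericyte mean they were Rasa4 (r = 0.97), Cyp4f13 (0.94), Alkbh3 (0.92), Necap2 (0.92) and Itpr3 (0.92), and 0.75 to 0.93 without CTRL replicates 2 and 3. All points come from the same 12 libraries, whose depth and tissue makeup they share, and no p-value is given because the genes were picked for the highest r. No contractile or pericyte gene of the lists was among the 10.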

How the data were processed

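Cortical RNA of 12 E4FAD mice was sequenced, with 1 library for each animal. The authors made poly(A) mRNA libraries, aligned the reads with STAR 2.5.3a (per the submitters' processing notes) to GRCm38 and deposited the raw counts for each gene, not normalized. The strand setting of the counting is not given in the sources used here. Gene names, positions and exon lengths came from GENCODE M21 (GRCm38), which matched 50339 of 50563 identifiers. The members and the gene lists were chosen with earlier results of these data known.

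CPM is the count scaled to the library's total on genes, and log2 CPM adds 0.5 to each count. The count test was edgeR's quasi-likelihood test (glmQLFit, glmQLFTest; edgeR 4.0.16, R 4.3.3) after TMM scaling and filterByExpr with the groups given, with Benjamini-Hochberg adjustment over the 15688 genes tested. The standard error is the log2 fold change divided by the root of F. Group was a covariate in the age test. Age was also tested by exact permutation within groups, and pairs of members by 100000 permutations within groups (Python 3.11.15, scipy 1.17.1). The genes named are the 10 members, each listed gene with an adjusted p under 0.05, the 3 further genes per list with the smallest p, the 5 genes most alike to each mean, and Ttr. Other listed genes were named for their role after their values were seen. The study names limma-voom, which was run as an alternative, as were DESeq2 1.42.0, other filters and scalings, covariates, single ages, a block for replicate number and the removal of single mice.

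Depth was 15208803 to 26520251 counts per mouse, and intervals over mice hold the spread between these animals. Within each group, libraries differed in pairs by more than sampling noise (chi-square per degree of freedom 4.93 to 105.9). None was thus the same library of its group counted again. Pairs across the groups were not compared in this way. On simulated counts in which 200 genes differed by a log2 fold change of 1, edgeR recovered 89.3% in the group comparison, with 4.85% false calls, and 86.8% in the age comparison, with 3.32% false calls. Smaller differences, such as those of the members, were not simulated, so recovery at their size is not known. No sex was assigned to single mice, and the log2 CPM of Xist, a gene expressed in females, was a covariate in 1 of the alternatives.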

Additional observations from a re-analysis of the deposited data

Results flagged for a closer look

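In 4 of the 20 combinations of member and group, a single mouse lay far from the rest of its group by Dixon's test on log2 CPM, and in all 4 it was CTRL replicate 3. Chance alone flags about 1 in 20 such groups. Rgs5 was high in this mouse, at 7.66 log2 CPM (201.6 CPM, where the other 6 CTRL mice had 113.3 to 136.6). Notch3 was low at 4.90 log2 CPM (29.9 CPM against 40.4 to 49.1), Vtn at 5.63 (49.6 CPM against 76.2 to 96.7) and Cspg4 at 4.80 (27.9 CPM against 45.2 to 50.6). The gap to the nearest mouse was 0.675, 0.607, 0.644 and 0.808 of the whole range, above the limit of 0.568 for 7 mice. The same library had the highest summed level among the 12 mice of the list of other contractile genes (628.3 CPM), of the serum response factor list (2037 CPM) and of astrocyte, cortical neuron and fibroblast markers, and the lowest of the PDGF and Notch lists. In CTRL the first 2 sums were mostly Tpm1 and Myh9 (means 188.7 and 172.6 CPM) and Mef2c and Mrtfb (796.6 and 430.0 CPM). The mean of the 3 smooth muscle members in this library was 4.09 log2 CPM, next to lowest in CTRL. What sets it apart was not tested.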

How the results depend on the processing

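Under 23 alternatives the log2 fold changes of Acta2, Tagln, Myh11, Pdgfrb, Rgs5, Abcc9 and Notch3 between DPAn-6 and CTRL stayed below 0, from −0.59 to −0.39, −0.68 to −0.48, −0.81 to −0.67, −0.23 to −0.12, −0.31 to −0.06, −0.42 to −0.24 and −0.37 to −0.23. Those of Kcnj8 (−0.20 to 0.004), Vtn (−0.18 to 0.03) and Cspg4 (−0.18 to 0.03) lay above 0 in the 14-month mice only, and below it elsewhere. The 243 genes called in all became 696 by DESeq2, 9 in the 14-month mice only, 17 with Ttr and 479 with the endothelial mean as covariate (both added after the data were seen), and 64 (without DPAn-6 replicate 3) to 953 (without CTRL replicate 3) with a mouse left out. Of these, the called listed genes other than the members, 10 in the reported fit, became 32 by DESeq2, 0 in the 14-month mice only, 0 with Ttr and 21 with the endothelial mean as covariate, and 1 to 33 with a mouse left out.

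The replicate number as a block gave 79 genes in all, 4 listed genes and log2 fold changes of −0.81 for Myh11, −0.57 for Acta2 and −0.58 for Tagln. The numbers do not pair the mice, since same-numbered mice deviated together with r of −0.125 to 0.22 and no mouse correlated best with its own number. In the age test no alternative called a gene. Differences near 0 changed sign in the CTRL mice only for Kcnj8 (−0.042) and Abcc9 (0.008). With a mouse left out the range included 0 for Kcnj8 (−0.021 to 0.079), Abcc9 (−0.099 to 0.054), Notch3 (−0.05 to 0.044), Vtn (−0.076 to 0.051) and Cspg4 (−0.102 to 0.022). The interaction called 18 genes by DESeq2, 13 without a filter, 0 with Xist as covariate, 0 with the block and 0 to 13 with a mouse left out, in place of 1, and never a member. Its sign changed with the block for Acta2 (−0.018), Myh11 (0.25), Rgs5 (0.42), Kcnj8 (−0.23), Abcc9 (0.28), Notch3 (−0.21), Vtn (−0.53) and Cspg4 (−0.015), with Xist for Tagln (0.56) and without a filter for Abcc9 (0.008). With a mouse left out it ranged from −0.022 to 0.445 for Acta2, −0.508 to 0.284 for Tagln, −0.393 to 0.068 for Myh11 and −0.244 to 0.13 for Abcc9. Of the pairs of members, 9 passed the adjustment without centring, which leaves the difference between the groups in them, and 0 otherwise. The cause of these changes was not tested. Precision is limited by 5 and 7 mice, by 53 to 100 counts for Kcnj8, and by whole tissue, in which mural cells are a small part.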
